A study of Homo sapiens with 4 samples.

Results

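The TRIM genes encode a family of tripartite-motif proteins, most of them RING-type ubiquitin ligases, and were followed here in clusters of A549 cells after knockdown of DUSP23. Members were the protein-coding genes whose symbol is TRIM followed by a number, with the listed transcripts of each gene ID summed. This rule gave 46 genes of the 13456 protein-coding genes in the deposited table, and 17 of them were classed as antiviral and 29 as other members. The antiviral class is a chosen list of symbols and does not hold every member with a role in innate immunity. TRIM29 and TRIM35, for example, are known for such roles and stand among the other members. TRIM15, the 18th symbol of the antiviral list, has no value here.

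A549 is an established lung adenocarcinoma cell line, and the tissue given for all samples is lung tumor. RNA came from tumor cluster cells of A549 carrying the DUSP23 construct (shDUSP23, 2 libraries) or the control construct (shMock, 2 libraries), and the genotype given for both groups is wild type. The labels used here state neither the hairpin's sequence, nor how many hairpins were used, nor what SUS in the sample names stands for. They do not say either that libraries of a group came from separate cultures, and the p-values then cover the spread among these libraries alone, which may be technical. DUSP23, the dual-specificity phosphatase targeted by the hairpin, had 1.71 and 2.71 FPKM in shDUSP23 clusters, against 29.96 and 35.9 FPKM in shMock clusters, and did not overlap between groups. It fell by 3.64 on the log2 scale (SE 0.22, adjusted p = 3.12e-05 by limma with Benjamini-Hochberg adjustment).

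A TRIM protein usually carries a RING domain that recruits a ubiquitin-loaded E2 enzyme, 1 or more B-box zinc fingers and a coiled coil through which the proteins pair, followed by a variable end such as a PRY-SPRY domain that binds the target. Many members are known for innate immunity: some bind viral proteins or capsids, others attach ubiquitin chains to sensors and adaptors such as RIG-I and MAVS, and several are themselves switched on by interferon. Other members act as nuclear cofactors of transcription, along microtubules, at the endoplasmic reticulum, or in turnover of single proteins.

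The values were FPKM, fragments scaled by transcript length and by library size, so levels can be set beside each other between genes. The estimated depth was 27000000 and 42300000 fragments in the shDUSP23 libraries and 21300000 and 25300000 fragments in the shMock libraries, and the listed values summed to 438604 and 446982 FPKM in shDUSP23 against 540163 and 578361 FPKM in shMock. The epithelial keratins KRT8, KRT18 and KRT7 were abundant and KRT19 was low, with KRT8 at 917 and 999 FPKM in shDUSP23 and 1144 and 1153 FPKM in shMock, and KRT19 at 5.73 and 8.96 FPKM in shDUSP23 and 6.02 and 7.38 FPKM in shMock. CDH1, the epithelial cadherin, was at 6.20 and 8.14 FPKM in shDUSP23 and 22.4 and 21.5 FPKM in shMock. Of 4 alveolar markers, only NAPSA is listed, at 2.42 to 3.22 FPKM in shDUSP23 and 1.96 to 2.14 FPKM in shMock. Of the immune markers 3 are listed, and their summed level was 103 and 137 FPKM in shDUSP23 and 31.05 and 33.7 FPKM in shMock. Nearly all of it came from CD68 in shDUSP23 (94.9 and 130.9 FPKM). ITGAM had 7.19 and 5.40 FPKM in shDUSP23 and 1.95 and 2.21 FPKM in shMock. CD68 and ITGAM rose by 2.20 and 1.39 on the log2 scale (adjusted p = 5.1e-05 and 0.0022, limma with Benjamini-Hochberg adjustment). CD14 went the other way, with 0.98 and 0.995 FPKM in shDUSP23 against 4.68 and 8.005 FPKM in shMock, and fell by 2.16 on the log2 scale (adjusted p = 0.000783, limma with Benjamini-Hochberg adjustment). PTPRC, CD3E, MS4A1 and LYZ have no value here, no endothelial marker of 3 is listed, and the 2 listed fibroblast markers of 5 summed to 4.19 and 4.75 FPKM in shDUSP23 and 2.96 and 2.51 FPKM in shMock. The part of these marker differences in the TRIM results was not tested, and in bulk RNA fewer cells of a type and less RNA per cell cannot be told apart.

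Interferon acts on many antiviral genes through the interferon-stimulated response element, and its core letters are therefore shown for the members that carry them near the start site. The letters GAAANNGAAA were searched on both strands in RefSeq windows (GRCh38.p14) from 250 bases before to 50 bases after each start, and 35 of the 46 members had a window. A match was present in 6 of 15 antiviral members, in 2 of 20 other members and in 1195 of 27305 genes in all (4.38%). The matching stretches, written 5′ to 3′ along the gene's own strand with the matched letters in capitals (as TTTCNNTTTC where they lie on the opposite strand), were as follows.
TRIM21, chr11:4393663-4393692, minus strand: ctgagcgGAAACTGAAAGTGAAAtagggag
TRIM69, chr15:44736446-44736495, plus strand: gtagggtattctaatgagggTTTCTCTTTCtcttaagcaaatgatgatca
TRIM5, chr11:5685072-5685121, minus strand: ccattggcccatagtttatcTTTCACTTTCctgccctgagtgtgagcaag
TRIM34, chr11:5624891-5624940, plus strand: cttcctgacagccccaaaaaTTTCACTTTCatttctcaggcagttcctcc
TRIM14, chr9:98119219-98119268, minus strand: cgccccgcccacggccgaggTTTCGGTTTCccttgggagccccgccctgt
TRIM26, chr6:30213565-30213620, minus strand: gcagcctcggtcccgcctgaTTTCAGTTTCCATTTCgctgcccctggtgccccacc
TRIM44, chr11:35662720-35662769, plus strand: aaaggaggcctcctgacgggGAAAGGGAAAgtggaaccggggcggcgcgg
TRIM16, chr17:15683002-15683051, minus strand: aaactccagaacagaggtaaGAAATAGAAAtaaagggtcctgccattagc

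The first 6 of these genes are antiviral members, and TRIM44 and TRIM16 are other members. TRIM21 and TRIM26 each held 2 overlapping matches, and the match of TRIM21 began 18 bases after its start, while the other 7 began 26 to 194 bases before theirs. A second pattern, TTCNNNGAA, the core of the site bound by STAT dimers, was in no antiviral window, in 4 of the 20 other members and in 9.38% of all genes, and it may overlap the first. These are matches of letters and not measured binding sites.

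Across the family, 42 of the 46 members had a mean of at least 1 FPKM and were tested, and 12 were higher and 2 lower in shDUSP23 at an adjusted p under 0.05 (limma, Benjamini-Hochberg over all 13691 genes tested). Members called higher made up 28.6% of those tested, against 23.1% of all tested genes, and members called lower made up 4.76%, against 22.2% of all tested genes. The median fitted change was 0.19 over the members and 0.03 over all tested genes, in log2 units of FPKM + 0.5, the scale of every fold change given here. All 17 antiviral members were tested, and 4 were higher (23.5%) and 0 lower by limma, with a median of 0.15. At an unadjusted p under 0.05, 5 antiviral members were higher and 0 lower, beside 3763 higher and 3570 lower of all 13691 tested genes. Of the other members 25 were tested, and 8 were higher (32%) and 2 lower (8%), with a median of 0.20. The share of antiviral members called higher thus lay at the background of all genes, and a difference between antiviral and other members was not tested.

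Rescaling the libraries to equal sums of listed FPKM moved the median of all genes to 0.37. On that scale 20 of 45 tested TRIM members were higher (44.4%) and 0 lower by limma, beside 35.9% and 11.3% of all genes. At an unadjusted p under 0.05, 24 members were higher and 0 lower, beside 6192 higher and 2016 lower of all 14951 genes. The 2 lower calls thus depended on the scaling. The share of higher genes among all calls was 51.0% as deposited and 76.2% at equal sums.

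**Figure D1:**
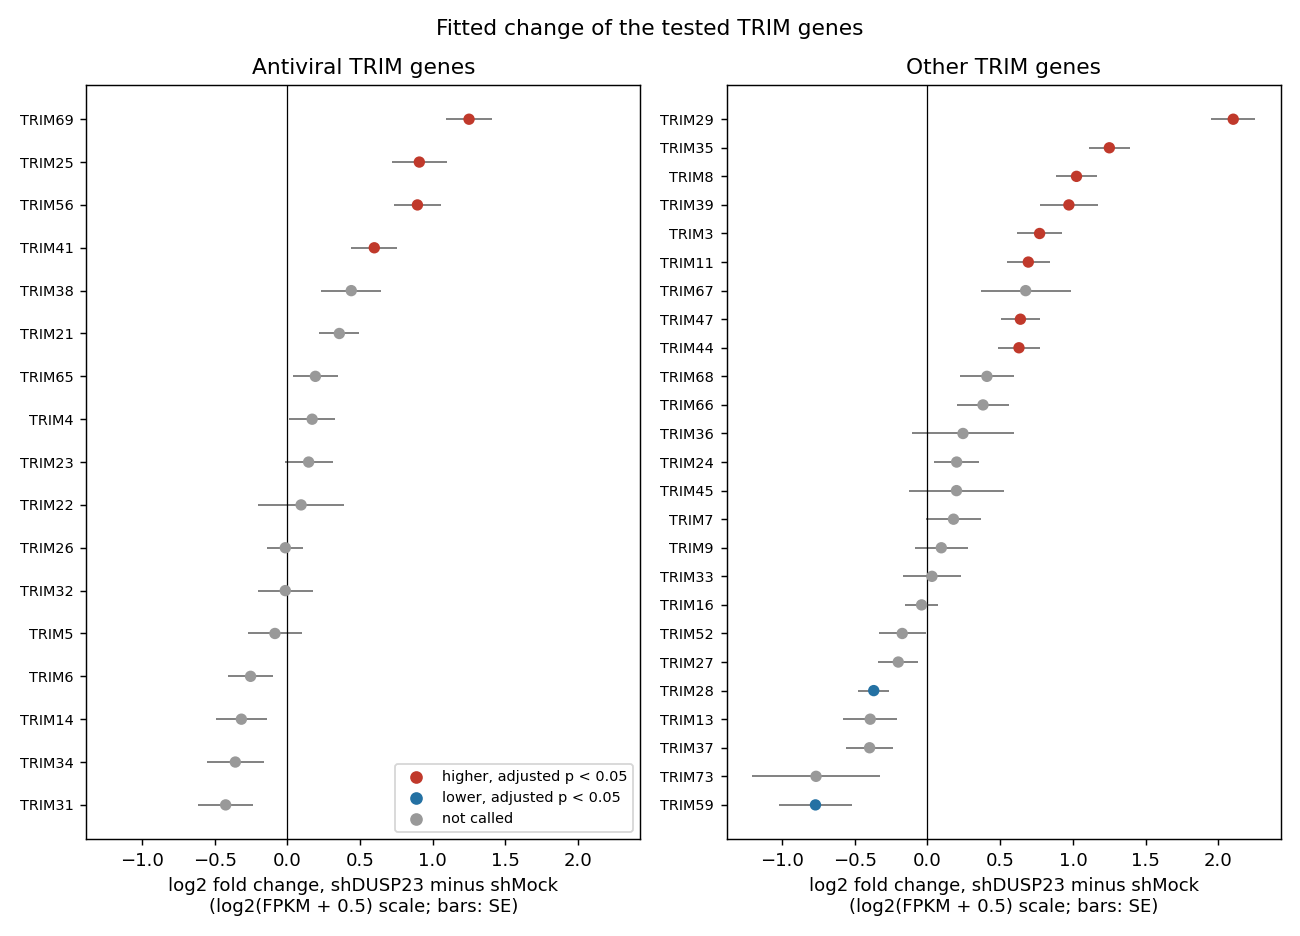
Fitted log2 fold change of each tested TRIM gene (x axis, shDUSP23 minus shMock, log2(FPKM + 0.5) scale; points are estimates and bars are SE), with antiviral genes on the left and other genes on the right. Of the antiviral genes 4 are called higher and 0 lower, and of the other genes 8 are called higher and 2 lower, with TRIM29 farthest from 0 at 2.10.

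**Figure D2:**
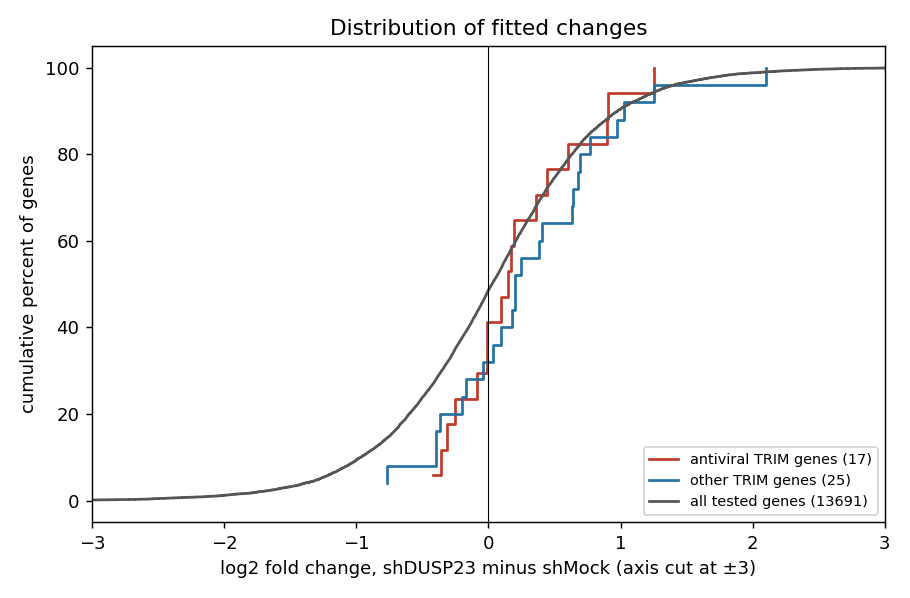
Cumulative percent of genes (y axis) by fitted log2 fold change (x axis, shDUSP23 minus shMock) for the 17 antiviral TRIM genes, the 25 other TRIM genes and all 13691 tested genes. Below 0 both TRIM curves lie under the curve of all genes, and their lowest values are -0.42 and -0.77.

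Among the antiviral members, the largest change was in TRIM69, a RING protein induced by interferon and known to restrict vesicular stomatitis virus. TRIM69 (ENSG00000185880, chr15:44728988-44767827, plus strand) had 33.5 and 41.6 FPKM in shDUSP23 clusters, against 14.3 and 16.6 FPKM in shMock clusters. Both shDUSP23 libraries lay above both shMock libraries. TRIM69 rose by 1.25 (SE 0.16, adjusted p = 0.000487 by limma with Benjamini-Hochberg adjustment), and over 17 alternatives it lay between 0.97 and 1.60 with adjusted p between 2.67e-05 and 0.0451.

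Most of the TRIM69 signal was not in transcripts annotated as protein-coding. Other transcript classes made up 93.1% and 96.6% of its FPKM in shDUSP23 and 95.4% and 95.8% in shMock. The most abundant, TRIM69-207, a processed transcript, had 26.0 and 28.1 FPKM in shDUSP23, against 10.5 and 9.84 FPKM in shMock. Its annotated start lies 7527 bases upstream of the RefSeq start whose stretch is printed above, so that stretch is not the promoter of the transcript that carried most of the signal. Summed over its protein-coding transcripts alone, TRIM69 changed by 0.97 (adjusted p = 0.0451, limma with Benjamini-Hochberg adjustment).

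TRIM25, the ligase known to attach ubiquitin chains to the RNA sensor RIG-I, had the highest mean of the antiviral members. TRIM25 (ENSG00000121060, chr17:56836387-56914080, minus strand) had 73.5 and 76.6 FPKM in shDUSP23 clusters, against 49.2 and 32.1 FPKM in shMock clusters. The shMock libraries differed from each other more than the shDUSP23 libraries did, but the groups did not overlap. TRIM25 rose by 0.91 (SE 0.19, limma, Benjamini-Hochberg adjusted p = 0.00501), and its estimate was 0.60 to 1.25 over 17 alternatives. The gene overlaps DGKE on the opposite strand, which had 5.19 and 6.14 FPKM in shDUSP23 and 5.43 and 3.74 FPKM in shMock.

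TRIM56, a ligase known to act in sensing through STING and in restriction of RNA viruses, had 25.4 and 30.4 FPKM in shDUSP23 clusters, against 16.2 and 13.4 FPKM in shMock clusters. TRIM41, known to target the nucleoproteins of influenza A and vesicular stomatitis viruses, had 20.9 and 24.8 FPKM in shDUSP23 and 13.7 and 16.1 FPKM in shMock. Neither gene overlapped between groups. TRIM56 rose by 0.90 (SE 0.16, adjusted p = 0.00253) and TRIM41 by 0.60 (SE 0.16, adjusted p = 0.0151) in the same limma fit with Benjamini-Hochberg adjustment. All listed TRIM56 transcripts are protein-coding, and it kept its call under 17 alternatives with estimates of 0.46, after the GC content and length correction, to 1.24, at equal sums. TRIM41 lost its call with a correction for GC content and length (0.18, adjusted p = 0.309) and without shMock library 1 (0.49, adjusted p = 0.112), and its adjusted p ranged from 0.0018 to 0.309 over the 17 alternatives.

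The remaining 13 antiviral members did not pass the test. TRIM21, the cytosolic antibody receptor that directs antibody-bound viruses to the proteasome, had 42.1 and 46.3 FPKM in shDUSP23 clusters, against 37.4 and 31.5 FPKM in shMock clusters, and the groups did not overlap. Its fitted change of 0.36 had an adjusted p of 0.0611 (limma, Benjamini-Hochberg). That value fell under the threshold in 6 of 17 alternatives, with a range of 0.00611 to 0.322. TRIM38, a regulator of Toll-like receptor signalling, had 7.11 and 8.03 FPKM in shDUSP23 and 6.23 and 4.74 FPKM in shMock, with a change of 0.44 and an adjusted p of 0.113 (limma, Benjamini-Hochberg).

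The capsid-binding restriction factor TRIM5 and its neighbour TRIM22, which lie on opposite strands and overlap, showed no shift beyond their spread. TRIM5 had 17.1 and 14.2 FPKM in shDUSP23 clusters and 19.2 and 14.3 FPKM in shMock clusters. TRIM22, an interferon-induced inhibitor of retroviral transcription, had 17.4 and 14.6 FPKM in shDUSP23 and 21.6 and 10.2 FPKM in shMock. For both genes 1 shMock library lay above both shDUSP23 libraries, and the fitted changes were -0.08 for TRIM5 and 0.10 for TRIM22. TRIM6 and TRIM34 stand in the same stretch of chromosome 11, and reads from a read-through transcript of the pair, where it exists, could be divided between them.

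TRIM6, which makes unanchored ubiquitin chains that activate IKKε, had 12.5 and 12.2 FPKM in shDUSP23 clusters and 15.9 and 13.7 FPKM in shMock clusters. TRIM34 had 5.72 and 4.93 FPKM in shDUSP23 and 6.48 and 7.43 FPKM in shMock. TRIM31, known to drive MAVS assembly, had 7.04 and 5.64 FPKM in shDUSP23 and 8.32 and 8.93 FPKM in shMock. Their groups did not overlap, and their changes of -0.25, -0.36 and -0.42 had adjusted p of 0.216, 0.169 and 0.1001 (limma, Benjamini-Hochberg). TRIM14, a RING-less adaptor at MAVS, had 8.99 and 7.90 FPKM in shDUSP23 and 11.5 and 9.78 FPKM in shMock. Its change of -0.32 did not pass as deposited (adjusted p = 0.174) and passed after the GC content and length correction (-0.61, adjusted p = 0.0121, limma with Benjamini-Hochberg adjustment).

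The last 5 antiviral members lay close to 0. TRIM65, a ligase of the RNA sensor MDA5, had 15.5 and 18.5 FPKM in shDUSP23 clusters and 14.8 and 14.7 FPKM in shMock clusters. TRIM4, which acts on RIG-I, had 19.0 and 17.5 FPKM in shDUSP23 and 18.01 and 14.5 FPKM in shMock. TRIM23, which is a GTPase as well as a ligase, had 10.7 and 10.2 FPKM in shDUSP23 and 9.95 and 8.86 FPKM in shMock. Their estimates were 0.19, 0.17 and 0.15. TRIM26, a ligase reported to act on nuclear IRF3, had 30.4 and 32.2 FPKM in shDUSP23 and 31.8 and 31.4 FPKM in shMock. TRIM32, an NHL-repeat member known to act on STING, had 7.14 and 7.06 FPKM in shDUSP23 and 7.93 and 6.47 FPKM in shMock. Both estimates were -0.01, and for TRIM4, TRIM26 and TRIM32 the groups overlapped. TRIM26 was called lower after the GC content and length correction alone or with the replicate block (-0.32, adjusted p = 0.034 without the block, limma with Benjamini-Hochberg adjustment), and its adjusted p over 17 alternatives was 0.034 to 0.988.

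**Figure D3:**
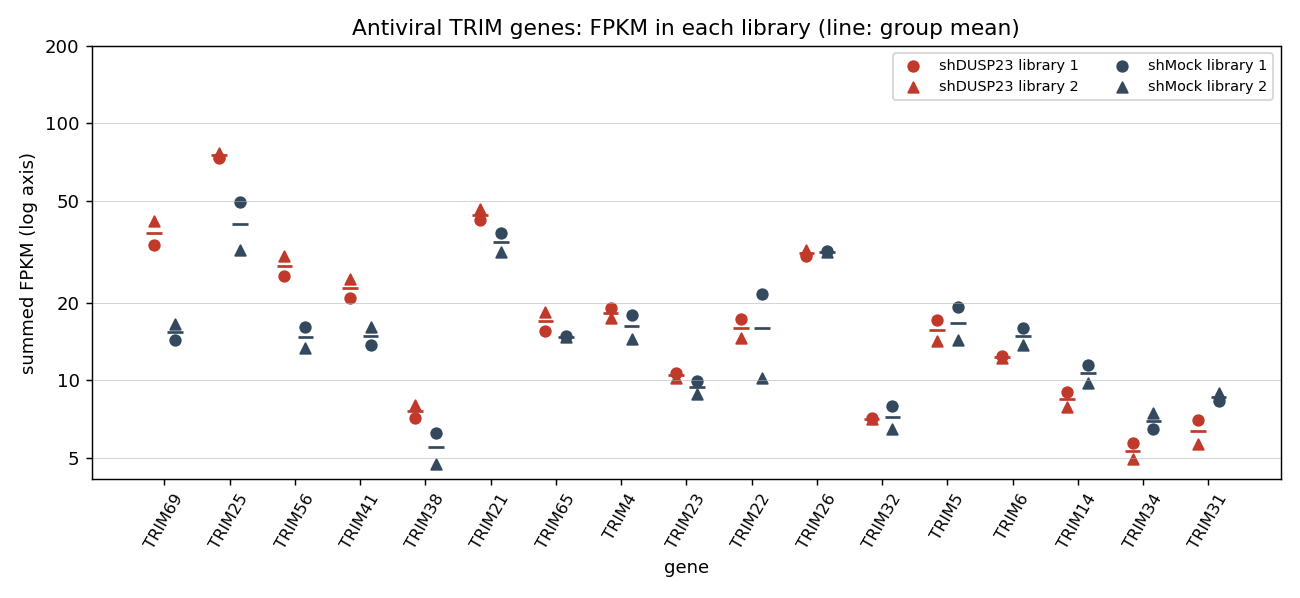
Summed FPKM (y axis, log scale) of the 17 antiviral TRIM genes in each library, with shDUSP23 in red left of shMock in blue, circles for library 1, triangles for library 2 and a line at each group mean. TRIM69, TRIM25, TRIM56 and TRIM41 stand higher in both shDUSP23 libraries, while TRIM22 spans 10.2 to 21.6 FPKM within shMock alone.

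Of the 9 antiviral members known as interferon-induced, 3 were higher (TRIM69, TRIM25 and TRIM56) and 0 lower, with a median of 0.36, beside 23.1% and 22.2% of all tested genes called in these directions. At equal sums 5 of the 9 were higher and 0 lower, beside 35.9% of all genes called higher. With the GC content and length correction 5 were higher and 1 lower, beside 22.9% and 22.5% of all genes. As deposited, the other 6, TRIM5, TRIM14, TRIM21, TRIM22, TRIM34 and TRIM38, did not pass. Of the 8 members with a match in the printed stretches 2 were higher, TRIM69 and TRIM44, and the median change of the 8 was -0.03. Of the 23 tested members with a window and no match, 6 were higher and 1 lower, and the median was 0.19. Both shares of higher members lay near the 23.1% of all tested genes, and a relation between letters and calls was not tested. The stretch also stands away from the most abundant transcript in TRIM5 and TRIM16, TRIM5-206 and TRIM16-211, which start 4842 and 39987 bases downstream. TRIM5-206 had 7.71 and 4.25 FPKM in shDUSP23 and 6.05 and 2.84 FPKM in shMock. The coding transcript TRIM5-202, which starts at the RefSeq start beside the printed stretch, was nearly as abundant. It had 4.25 and 6.04 FPKM in shDUSP23 and 5.56 and 3.83 FPKM in shMock.

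Among the other members, TRIM29 moved most. TRIM29, also called ATDC, lacks a RING and is known as a marker of squamous epithelium and as a negative regulator of interferon responses in airway cells. TRIM29 (ENSG00000137699, chr11:120111298-120128913, minus strand) had 39.3 and 48.0 FPKM in shDUSP23 clusters, against 9.34 and 10.1 FPKM in shMock clusters. Both shDUSP23 values were far above both shMock values, and TRIM29 rose by 2.10 (SE 0.15, adjusted p = 5.04e-05 by limma with Benjamini-Hochberg adjustment).

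Nearly all of this signal came from 1 processed transcript, TRIM29-204, at 37.5 and 46.7 FPKM in shDUSP23, against 8.44 and 9.22 FPKM in shMock. The only listed protein-coding transcript, TRIM29-213, had 0.54 and 0 FPKM in shDUSP23 and 0.80 and 0.87 FPKM in shMock, and was too low to test. Among the listed transcripts, the TRIM29 values thus rest mainly on an RNA annotated as noncoding. The filter behind the list is not given, so the level of any coding transcript left off it cannot be judged here.

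TRIM35, a ligase known to act on pyruvate kinase PKM2 and on IRF7, had 26.6 and 28.1 FPKM in shDUSP23 clusters, against 10.8 and 11.6 FPKM in shMock clusters. TRIM8, a ligase known to enhance NF-κB and STAT3 signalling, had 48.8 and 61.0 FPKM in shDUSP23, against 26.3 and 26.9 FPKM in shMock. Neither gene overlapped between groups. TRIM35 rose by 1.25 (SE 0.14, adjusted p = 0.000299) and TRIM8 by 1.02 (SE 0.14, adjusted p = 0.000779) in the limma fit with Benjamini-Hochberg adjustment. Both kept their call under 17 alternatives, with estimates of 0.98 to 1.60 for TRIM35 and 0.52 to 1.37 for TRIM8.

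In contrast to TRIM29 and TRIM69, protein-coding transcripts carried most of the signal of these genes. The coding transcript TRIM8-209 had 36.6 and 45.7 FPKM in shDUSP23, against 16.6 and 16.7 FPKM in shMock. TRIM35-201 had 19.2 and 19.7 FPKM in shDUSP23, against 9.74 and 9.23 FPKM in shMock.

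**Figure D4:**
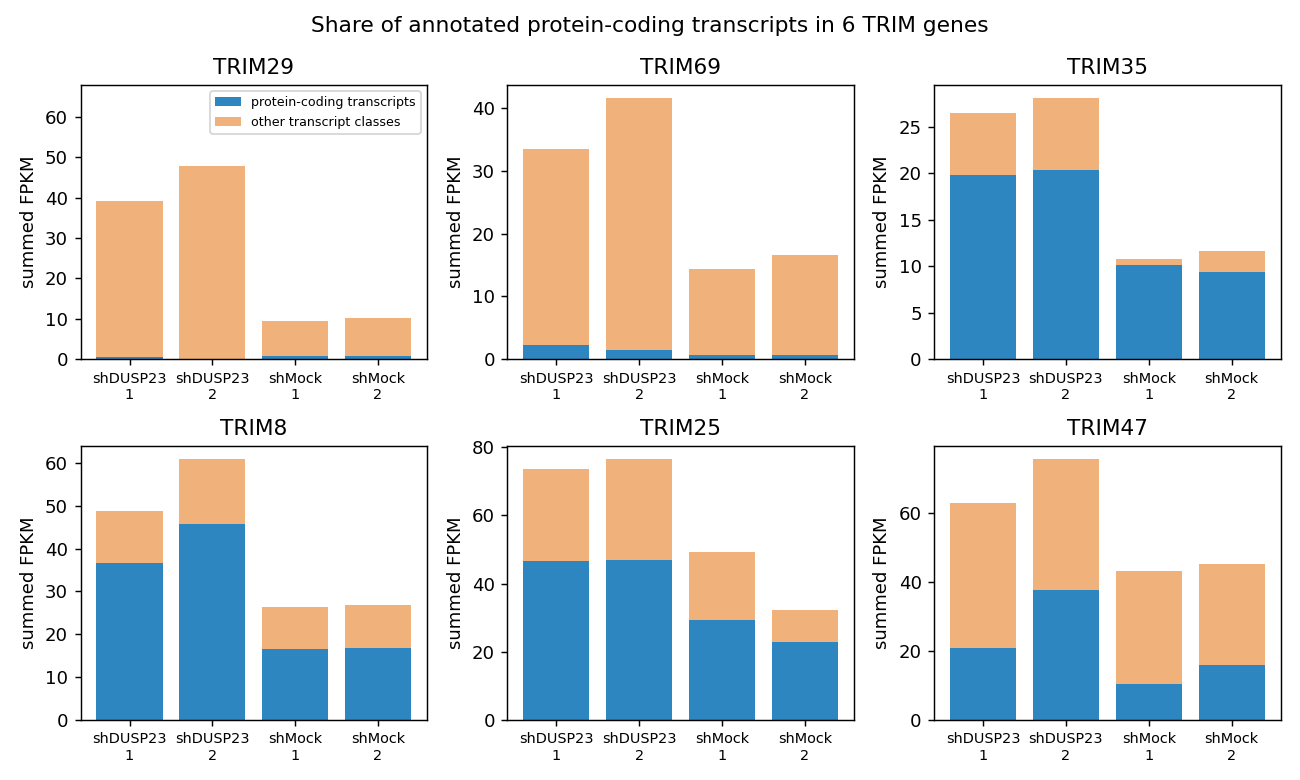
Summed FPKM (y axis, from 0) of 6 TRIM genes in the 4 libraries, split into transcripts annotated as protein-coding (blue) and other classes (orange). TRIM29 and TRIM69 are almost wholly orange in every library, while blue makes up most of TRIM35 and TRIM8.

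When transcripts rather than gene sums were tested, 106 of the 162 listed TRIM transcripts had a mean of at least 1 FPKM. By limma 4 of the 106 were higher and 0 lower. At an unadjusted p under 0.05, 18 were higher and 3 lower, beside 4695 higher and 4855 lower of all 37453 transcripts. Over all 37453 transcripts 1554 were called at an adjusted p under 0.05 (4.15%), 636 of them higher and 918 lower. The 4 TRIM transcripts called higher were TRIM29-204 (2.18, adjusted p = 0.0285), TRIM69-207 (1.37, adjusted p = 0.0329), TRIM8-209 (1.27, adjusted p = 0.039) and TRIM35-201 (0.996, adjusted p = 0.0481), all from limma with Benjamini-Hochberg adjustment.

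The next 5 other members called higher had smaller changes. TRIM39, a ligase known to stabilise the apoptosis factor MOAP1, had 9.46 and 7.73 FPKM in shDUSP23 clusters, against 4.002 and 4.23 FPKM in shMock clusters. It rose by 0.97 (SE 0.20, limma, Benjamini-Hochberg adjusted p = 0.00478). The antisense RNA HCG18 overlaps TRIM39 and had 9.33 and 7.45 FPKM in shDUSP23 and 9.18 and 11.9 FPKM in shMock, and without a stated strand setting their reads cannot be told apart.

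TRIM3, an NHL-repeat member known as a growth suppressor in glioma, had 14.6 and 16.2 FPKM in shDUSP23 clusters, against 8.74 and 8.85 FPKM in shMock clusters. Transcripts not annotated as protein-coding made up 58.8% and 40.3% of its FPKM in shDUSP23 and 56.7% and 64.8% in shMock. TRIM11, known for degrading misfolded proteins, had 18.8 and 18.1 FPKM in shDUSP23, against 11.6 and 10.8 FPKM in shMock. TRIM3 rose by 0.77 (SE 0.16, adjusted p = 0.00466) and TRIM11 by 0.69 (SE 0.15, adjusted p = 0.00566), both in the limma fit with Benjamini-Hochberg adjustment. TRIM11 lost its call with the GC content and length correction (0.31, adjusted p = 0.0881) and without shMock library 2 (0.64, adjusted p = 0.0534), within a range of 0.00131 to 0.0881 over 17 alternatives.

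TRIM47, a ligase often raised in carcinomas, had 62.8 and 75.8 FPKM in shDUSP23 clusters, against 43.1 and 45.1 FPKM in shMock clusters. TRIM44, which carries a ubiquitin-protease-type zinc finger in place of a RING, had 39.9 and 35.3 FPKM in shDUSP23, against 26.4 and 22.0 FPKM in shMock. For both genes the groups did not overlap. TRIM47 rose by 0.64 (SE 0.13, adjusted p = 0.00502) and TRIM44 by 0.63 (SE 0.14, adjusted p = 0.00831), both by limma with Benjamini-Hochberg adjustment. TRIM47 kept its call under 17 alternatives with estimates of 0.38, after the GC content and length correction, to 1.11, with protein-coding transcripts alone. Other transcript classes made up 66.6% and 50.2% of its FPKM in shDUSP23 and 76.1% and 65.1% in shMock. TRIM44 lost its call without shMock library 2 (0.50, adjusted p = 0.0745), the highest adjusted p of its 17 alternatives, the lowest being 0.00172.

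TRIM28, also called KAP1, is the corepressor that KRAB zinc-finger proteins use to silence retroelements. It had 139 and 137 FPKM in shDUSP23 clusters, against 181 and 176 FPKM in shMock clusters, with no overlap between groups. TRIM28 fell by 0.37 on the log2 scale (SE 0.11, limma, Benjamini-Hochberg adjusted p = 0.023). The call was lost at equal sums (-0.03, adjusted p = 0.822), with each library left out in turn and in 3 more of the 17 alternatives. With a library left out the estimate stayed at -0.35 to -0.39 (adjusted p = 0.0537 to 0.102), and over all 17 alternatives the adjusted p ranged from 0.00207 to 0.822.

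TRIM59, a ligase of the endoplasmic reticulum membrane, was a low gene, with 2.50 and 1.87 FPKM in shDUSP23 clusters, against 4.38 and 3.73 FPKM in shMock clusters. It fell by 0.77 on the log2 scale (SE 0.25, limma, Benjamini-Hochberg adjusted p = 0.0366). The call was lost in 6 of 16 alternatives, equal sums among them (-0.52, adjusted p = 0.167), within a range of 0.0127 to 0.226. SMC4, a condensin subunit that overlaps TRIM59 on the opposite strand, had 13.9 and 11.9 FPKM in shDUSP23, against 35.7 and 28.3 FPKM in shMock, and fell by 1.27 (adjusted p = 0.00056, limma with Benjamini-Hochberg adjustment). Without a stated strand setting the reads of the overlap cannot be told apart.

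**Figure D5:**
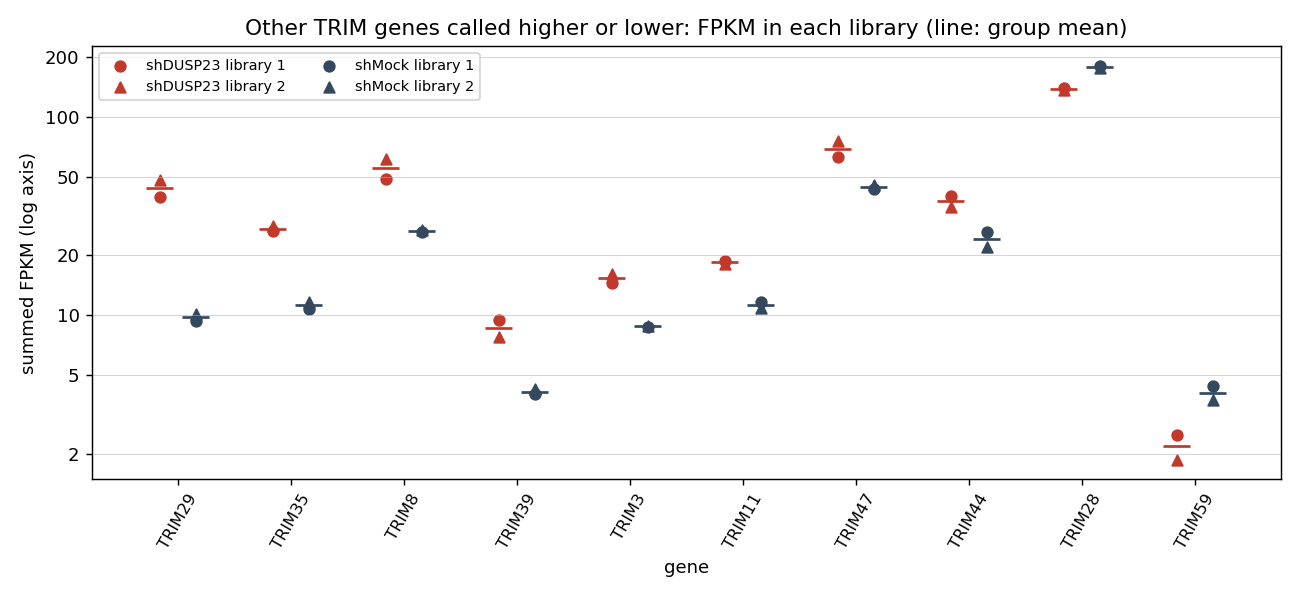
Summed FPKM (y axis, log scale) in each library of the 10 other TRIM genes called higher or lower, with shDUSP23 in red left of shMock in blue, circles for library 1, triangles for library 2 and a line at each group mean. The first 8 genes stand higher in both shDUSP23 libraries, and TRIM28 and TRIM59 stand lower.

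By role, the 4 TIF1-type cofactors, which join a PHD finger to a bromodomain, held 1 lower call, TRIM28. Of all tested genes 23.1% were called higher and 22.2% lower, and role groups this small allow no statement on a role. TRIM24, a cofactor of nuclear receptors, had 14.0 and 15.9 FPKM in shDUSP23 clusters and 13.2 and 12.6 FPKM in shMock clusters. TRIM33, which acts in SMAD signalling, had 10.6 and 9.09 FPKM in shDUSP23 and 11.3 and 8.15 FPKM in shMock. TRIM66 had 8.90 and 10.7 FPKM in shDUSP23 and 7.30 and 7.45 FPKM in shMock. Their changes of 0.20, 0.03 and 0.38 did not pass (limma, Benjamini-Hochberg adjusted p = 0.311, 0.913 and 0.112), and TRIM33 alone of the 3 overlapped between groups.

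The COS-box members that the naming rule took in, which bind microtubules, were low and held no call. MID1 and MID2 fall outside that rule by name, and their calls, in opposite directions, are given below. TRIM9 had 7.61 and 8.13 FPKM in shDUSP23 clusters and 7.97 and 6.74 FPKM in shMock clusters. TRIM36 had 2.54 and 1.495 FPKM in shDUSP23 and 2.07 and 1.18 FPKM in shMock. TRIM67 had 1.72 and 1.88 FPKM in shDUSP23 and 0.83 and 1.06 FPKM in shMock, and its change of 0.68 did not pass (adjusted p = 0.107, limma with Benjamini-Hochberg adjustment). TRIM46 was under the level for testing, at 1.39 and 0 FPKM in shDUSP23 and 1.46 and 1.09 FPKM in shMock.

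Of the NHL-repeat members, TRIM3 rose, and TRIM32 did not pass. TRIM71, the LIN-41 protein of early embryos, was the lowest member, at 0.62 and 0.28 FPKM in shDUSP23 clusters and 0.081 and 0.0091 FPKM in shMock clusters, and was not tested. These values stood for about 145 and 104 estimated fragments in shDUSP23 and 15 and 2 in shMock. Of the 5 members without a RING, TRIM29 and TRIM44 rose, and TRIM14, TRIM16 and TRIM66 did not pass. Among all tested genes 23.1% were called higher, and nothing is read from a count in so small a group. TRIM16 had 55.6 and 55.0 FPKM in shDUSP23 and 56.2 and 57.6 FPKM in shMock, and its near-copy TRIM16L, with which reads may be shared, had 58.6 and 53.5 FPKM in shDUSP23 and 67.5 and 65.7 FPKM in shMock. TRIM13, which like TRIM59 sits in the endoplasmic reticulum membrane, had 9.81 and 11.9 FPKM in shDUSP23 and 16.3 and 12.7 FPKM in shMock, and its change of -0.39 did not pass (limma, Benjamini-Hochberg adjusted p = 0.113).

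The remaining tested members were not called. TRIM37, a centrosome ligase, had 11.6 and 10.2 FPKM in shDUSP23 clusters and 15.3 and 13.7 FPKM in shMock clusters, with a change of -0.40 (limma, Benjamini-Hochberg adjusted p = 0.0707). TRIM27, TRIM52, TRIM7, TRIM45 and TRIM68 had changes of -0.20, -0.17, 0.18, 0.20 and 0.41. TRIM73, which has near-identical copies, had 2.74 and 0.69 FPKM in shDUSP23 and 3.08 and 2.62 FPKM in shMock, and its copy TRIM74, not tested, had 0 and 1.79 FPKM in shDUSP23 and 0.70 and 0.85 FPKM in shMock. TRIM62, also not tested, had 0.77 and 0.96 FPKM in shDUSP23 and 1.17 and 0.89 FPKM in shMock.

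TRIM28 had the highest level of the family in every library, and the order below it differed between groups. In shDUSP23 clusters it averaged 138.3 ± 1.3 FPKM and was followed by TRIM25 at 75.1 ± 2.2, TRIM47 at 69.3 ± 9.2, TRIM16 at 55.3 ± 0.40, TRIM8 at 54.9 ± 8.6 and TRIM21 at 44.2 ± 3.0 FPKM (SD, n = 2). In shMock clusters it averaged 178.8 ± 3.6 FPKM and was followed by TRIM16 at 56.9 ± 1.0, TRIM47 at 44.1 ± 1.5, TRIM25 at 40.7 ± 12.1, TRIM21 at 34.4 ± 4.2 and TRIM26 at 31.6 ± 0.29 FPKM (SD, n = 2). Library values overlapped between TRIM25 and TRIM47 and between TRIM16 and TRIM8 in shDUSP23, and between TRIM47 and TRIM25, TRIM25 and TRIM21, and TRIM21 and TRIM26 in shMock.

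Family members with other names were followed beside these. PML, which builds nuclear bodies and restricts viruses, had 15.5 and 19.0 FPKM in shDUSP23 clusters, against 8.20 and 6.65 FPKM in shMock clusters. PML rose by 1.16 (adjusted p = 0.00139), and MID2 and TRIML2 rose by 1.09 and 0.96 (adjusted p = 0.00158 and 0.00222, limma with Benjamini-Hochberg adjustment). MID1, a microtubule ligase close to MID2 in sequence, fell by 0.73 on the log2 scale, with 21.8 and 28.7 FPKM in shDUSP23 against 40.7 and 43.2 FPKM in shMock (adjusted p = 0.00577, limma with Benjamini-Hochberg adjustment). MID1 lost its call at equal sums, with -0.40 and an adjusted p of 0.0652.

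Of 17 tested E2 enzymes, which hand ubiquitin to RING ligases, 2 were higher and 6 lower, beside 23.1% and 22.2% of all tested genes, with a median of -0.07. UBE2L6, the interferon-induced E2 for ISG15 that works with TRIM25, had 82.7 and 77.5 FPKM in shDUSP23 clusters, against 53.4 and 40.8 FPKM in shMock clusters, and rose by 0.77 (limma, Benjamini-Hochberg adjusted p = 0.00357). UBE2N and its partner UBE2V2, which build lysine-63 chains, had 56.4 and 56.7 FPKM and 47.4 and 44.1 FPKM in shDUSP23, against 71.2 and 90.9 FPKM and 71.4 and 87.4 FPKM in shMock. They fell by 0.50 and 0.78 on the log2 scale, and UBE2E3 fell by 0.67 (limma, Benjamini-Hochberg adjusted p = 0.019, 0.00218 and 0.00472). The calls of UBE2N and UBE2E3 were lost at equal sums (-0.17 and -0.35, adjusted p = 0.315 and 0.0894), and those of UBE2N and UBE2V2 with the GC content and length correction (-0.13 and -0.28, adjusted p = 0.441 and 0.0777). UBE2D2, the other E2 called higher, was named after its values were seen and had 65.9 and 86.0 FPKM in shDUSP23, against 58.2 and 49.0 FPKM in shMock. Its change of 0.49 lost its call with median-ratio scaling and with eBayes without a trend (limma, Benjamini-Hochberg adjusted p = 0.0565 and 0.0977). Its estimate was 0.30 without shDUSP23 library 2, 0.615 without shMock library 1 and 0.37 without shMock library 2.

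In the sensing pathway on which antiviral members act, 11 of 17 tested genes were higher and 1 lower, beside 23.1% and 22.2% of all tested genes, with a median of 0.53 against 0.03 over all genes. DHX58, the LGP2 helicase related to RIG-I, had 149.5 and 149.7 FPKM in shDUSP23 clusters, against 43.6 and 44.4 FPKM in shMock clusters, and rose by 1.75 (limma, Benjamini-Hochberg adjusted p = 3.14e-05). STING1, the adaptor of DNA sensing, rose by 2.01 and was a low gene, with 3.60 and 4.91 FPKM in shDUSP23 against 0.78 and 0.57 FPKM in shMock. TRAF6, a ligase downstream of Toll-like receptors, had 14.7 and 13.7 FPKM in shDUSP23 and 7.82 and 5.69 FPKM in shMock, and IRF7 had 16.8 and 25.01 FPKM in shDUSP23 and 10.2 and 7.13 FPKM in shMock. Their changes were 1.03 and 1.22 (limma, Benjamini-Hochberg adjusted p = 0.00311 and 0.00357).

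The gene of RIG-I itself, listed as DDX58 and named for its link to TRIM25 after its values were seen, had 309 and 285 FPKM in shDUSP23 clusters and 259 and 209.7 FPKM in shMock clusters. Its change of 0.35 did not pass (limma, Benjamini-Hochberg adjusted p = 0.0628). TBK1, the 1 lower gene, had 20.5 and 18.7 FPKM in shDUSP23, against 27.3 and 28.95 FPKM in shMock. Its fitted fall of -0.51 was no longer called at equal sums (-0.19, adjusted p = 0.335). The TBK1 call was also lost with the GC content and length correction (-0.235, adjusted p = 0.142, limma with Benjamini-Hochberg adjustment).

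Of 20 interferon-response genes tested, 9 were higher and 3 lower, beside 23.1% and 22.2% of all tested genes, with a median of 0.45. RSAD2, the antiviral enzyme viperin, had 765 and 717 FPKM in shDUSP23 clusters, against 133.5 and 112.4 FPKM in shMock clusters, and rose by 2.59 (limma, Benjamini-Hochberg adjusted p = 2.41e-05). OAS2 rose by 1.10 and IRF1 by 0.87 (limma, Benjamini-Hochberg adjusted p = 0.000508 and 0.000837). CXCL10, an interferon-induced chemokine, had 25.4 and 28.6 FPKM in shDUSP23, against 74.0 and 93.5 FPKM in shMock, and fell by 1.61 on the log2 scale (limma, Benjamini-Hochberg adjusted p = 0.000129). GBP1 and IFIT1, named after their values were seen, were the other 2 lower genes, with fitted changes of -0.97 and -0.38. The call of IFIT1 was lost at equal sums (-0.05) and with the GC content and length correction (-0.008). It was also lost with quantile scaling (0.067) and with eBayes without a trend.

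Of 11 tested corepressors that work with TRIM28, 2 were higher and 2 lower, with a median of 0.12. Both counts lay near or below the 23.1% and 22.2% of all tested genes called in these directions, so single members are described without a statement on the group. CBX3, the heterochromatin protein HP1γ, had 91.2 and 83.9 FPKM in shDUSP23 clusters, against 167.7 and 163.5 FPKM in shMock clusters, and fell by 0.92 on the log2 scale (limma, Benjamini-Hochberg adjusted p = 0.000424). CHD3, a helicase of the NuRD complex, fell by 0.59, and its paralog CHD4 rose by 0.49 (limma, Benjamini-Hochberg adjusted p = 0.00557 and 0.0164). MORC2, an ATPase that works with the HUSH complex, rose by 0.54 (limma, Benjamini-Hochberg adjusted p = 0.0329), but summed over its protein-coding transcripts alone its estimate was -0.32 (adjusted p = 0.366). The call of CHD3 was lost at equal sums (-0.26, adjusted p = 0.159) and that of CHD4 after the GC content and length correction (0.19, adjusted p = 0.187). SETDB1, the histone methyltransferase of this complex, had 15.4 and 15.6 FPKM in shDUSP23 and 15.7 and 15.5 FPKM in shMock, with a change of -0.01.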

How the data were processed

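RNA of 4 libraries, 2 of shDUSP23 and 2 of shMock A549 clusters, was sequenced as messenger RNA libraries on an Illumina NovaSeq, per the labels' protocols. The authors deposited FPKM for each listed Ensembl transcript in each library, and no read counts. Per the submitters' processing notes, the build was GRCh38 and the tools included DESeq2 1.32.0 and STAR 2.7.1a. Which tool quantified transcripts, with which annotation, strand setting and filter, is not given in the sources used here. Gene coordinates span the listed transcripts as deposited.

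The table listed 56389 transcripts of 16371 genes, and FPKM were summed per gene ID, a step decided after the table was seen. Depth was estimated from the steps of low values in genes with 1 listed transcript and GENCODE release 29 lengths. Of the values up to 50 fragments, 83.1% and 85.4% were whole within 0.1 fragment in shDUSP23, and 83.1% and 82.9% in shMock. This share was too low to recover counts, so no count test was run.

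The test was limma 3.58.1 in R 4.3.3 (two-sided, moderated with an intensity trend, no covariates) on log2(FPKM + 0.5) for genes averaging 1 FPKM or more. Genes were called at a Benjamini-Hochberg adjusted p under 0.05 over all genes tested. The fit was tested on simulated data. Tables and figures were made in Python 3.11.15 with pandas 2.3.3, numpy 2.4.6 and matplotlib 3.10.9. The members, gene lists and tests were chosen with earlier results of these data known. Values in every library are given for the antiviral members, the 10 other members called with the largest change and the role groups, and of each further list the 4 genes with the smallest p are named. Alternatives were pseudocounts of 0.1 and 1 FPKM, no filter or a mean of at least 5 FPKM, equal sums, median-ratio and quantile scaling, eBayes without a trend or robust, protein-coding transcripts alone, a GC content and length correction, a block for the replicate number, and each library left out in turn. Transcripts as features and the interferon-induced list alone were added after the data were seen.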

Additional observations from a re-analysis of the deposited data

How the results depend on the processing

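The count of all genes called was 6202 and lay between 3464 and 6442 with 1 library left out (4038 without shMock library 1 and 3464 without shMock library 2). Equal sums gave 20 of 45 tested TRIM members higher where 12 were higher as deposited, and 8 of 17 antiviral members where 4 were. These shares of 44.4% and 47.1% stood beside 35.9% of all genes called higher at equal sums. The medians on that scale were 0.48 for antiviral and 0.51 for other members, beside 0.37 over all genes. Members called lower, 2 as deposited and both of them other members, numbered 0 at equal sums, and 1 with a mean of at least 5 FPKM, with quantile scaling, with eBayes without a trend and with protein-coding transcripts alone. With the GC content and length correction, with or without the replicate block, 4 members were lower, 2 of them antiviral, where 0 antiviral members were lower as deposited. With that correction 12 members were higher, 5 of them antiviral. With 1 library left out, 0 to 3 members, 0 to 1 antiviral members and 0 to 2 other members were lower. Without shDUSP23 library 2, shMock library 1 or shMock library 2 no member was lower. The antiviral median was 0.020 to 0.23 and the other median 0.080 to 0.34 with 1 library left out, the lowest of both without shMock library 2, and the interferon-induced list alone had a median of 0.36. MORC2 turned to -0.32 with protein-coding transcripts alone and IFIT1 to 0.067 with quantile scaling. In all, 628 of 707 member values kept call and direction, 21 lost and 26 gained a call, and 32 uncalled values changed sign. The cause of these differences was not tested.

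The replicate numbers are shared between groups, and the deviations of same-numbered libraries correlated with r = 0.05 over genes in the 2 pairs. With 2 libraries per group this value cannot show whether same-numbered libraries shared a batch. With the replicate block 6707 genes were called, with 13 members higher and 2 lower. With 2 libraries per group, changes the size of that of TRIM21 were near the limit of what could be called, and TRIM71 rested on as few as 2 estimated fragments in 1 library.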
